A study of Rattus norvegicus with 19 samples.

Results

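Fibroblasts and the part of the heart's matrix that is not collagen were followed through 45 listed genes: surface and transcription factor genes that mark fibroblasts, and genes of secreted proteoglycans, elastic and microfibril proteins, matricellular and adhesive proteins, and of the enzymes and chaperones that process collagen. Members were taken from that list by symbol, wherever the count files held them. The count files held 43 of the 45 among 17455 genes, and all 43 passed the filter on low counts that left 12388 genes for testing. Pcolce2 stood in the files in capitals and was matched without regard to case, while Fbln2 and Nid1 were not analysed here.

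Fibroblasts lie between the muscle cells of the heart and lay down most of its interstitial matrix. In that matrix small leucine-rich proteoglycans bind collagen fibrils, microfibrils carry elastin, and matricellular proteins act on cell behaviour more than they bear load. Lysyl oxidases crosslink collagen and elastin outside the cell, and the genes of many of these proteins are known to be more active in fibroblasts of a scarring heart.

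RNA of rat hearts was sequenced as 19 libraries in 7 groups, to ask how a diet and drug model of heart failure with preserved ejection fraction (HFpEF), and its treatment, change the heart. The rats were Sprague-Dawley, recorded as wild type, 24 weeks old and 300 to 350 g at the start, and every library is labelled male. The labels call the tissue heart, and the study's methods call it left ventricle. At week 5, control 5w rats had eaten normal chow and drunk plain water, and HFpEF rats had taken L-NAME, which blocks nitric oxide synthases, at 0.5 g/L in the drinking water with a diet drawing 60% of its calories from fat. The other 5 groups were taken at week 9. Control 9w rats were healthy, and untreated rats were HFpEF rats given phosphate-buffered saline by gavage for 4 weeks. EMPA rats were HFpEF rats given empagliflozin, an inhibitor of the sodium-glucose transporter SGLT2, at 0.35 g/kg/day. PFD rats were HFpEF rats given pirfenidone, an antifibrotic drug, at 0.3 g/kg/day, and EMPA + PFD rats received both at these doses. The drugs, like the saline, were given for 4 weeks. For all HFpEF rats of week 9, L-NAME at 0.5 g/L and the 60% fat diet are recorded as well. The study's discussion speaks of induction over 9 weeks, and its methods do not say whether induction went on during treatment. EMPA and PFD have 2 libraries each and the other groups have 3, labelled as biological replicates. The model joins a diet with a drug, so that neither can be told from the other here, and no source used here says whether the control 9w rats were gavaged.

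Levels are given in CPM, a gene's counts per 1000000 counts of its library after scaling by TMM (the trimmed mean of M-values), in the order of the replicates. SE is a standard error. Total counts per library ran from 7430539 to 13017754, so that 1 count was worth 0.0718 to 0.133 CPM. The lowest count of any member in any library was 8, for Thbs4, and no member was at 0. Genes were tested with the quasi-likelihood F test of edgeR on the counts, in 1 model of all groups, with p-values adjusted by Benjamini-Hochberg over the 12388 genes in each comparison. A gene is called, as a differentially expressed gene (DEG), when that p-value is below 0.05 and its log2 fold change is at least 1 or at most −1, a 2-fold change either way. HFpEF against control 5w is called DE, control 9w against control 5w is PC, untreated against control 9w is UT, and EMPA + PFD against untreated is TE. The p-values judge a difference between groups against the spread between libraries, pooled over all groups, and take the libraries as independent. Levels are compared within a gene and not between genes, because gene lengths were not used.

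Libraries of a group stood apart in these genes before any groups were compared. In control 5w, replicate 1 was the lowest library for 40 of the 43 members and replicate 2 the highest for 35. The ratio of replicate 2 to replicate 1 had a median of 4.63 over the members and reached 89.4 for Postn, whereas the ratio of replicate 2 to replicate 3 had a median of 1.16. Over all genes, the chi-square of replicates 2 and 3 per gene was 7.05, where sampling noise alone gives about 1, against 15.2 to 187 for the other pairs of libraries within a group. The labels give replicates 2 and 3 as separate replicates, and whether they come from separate hearts was not tested, so the results are also given with their counts summed as 1 library, a setting chosen after seeing the data. Replicate 1 lay above the whole control 9w range for 14 members, within it for 18 and below it for 11, among them Eln and Mfap4, which were called lower in PC. Untreated replicate 2 was the highest of its group for 40 members, with Fap, Smoc2 and Sparc as the exceptions. HFpEF replicate 1 was the highest for 37, EMPA replicate 2 for 35, EMPA + PFD replicate 2 the lowest for 32 and control 9w replicate 2 the lowest for 34. Libraries with atrial markers here means those with the atrial gene Sln at 100 CPM or more (control 9w replicates 1 and 3 and untreated replicate 2). Leaving them out leaves control 9w with replicate 2 alone. Libraries that stayed in also held other atrial markers. The sum of 6 such markers was 3485, 6639.7 and 5098 CPM in control 5w and 5433 CPM in EMPA replicate 2.

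Other genes set some of the same libraries apart. Sln, which encodes sarcolipin of atrial muscle, was at 156 and 695 CPM in control 9w replicates 1 and 3 and at 518 CPM in untreated replicate 2, and at no more than 5.95 CPM elsewhere, although the tissue is given as left ventricle. Col2a1, the collagen of cartilage, was at 1148 CPM in HFpEF replicate 1 and 737 CPM in EMPA replicate 2, and at no more than 1.79 CPM elsewhere. Comp, a cartilage matrix gene, was at 402 and 223 CPM in the same libraries and at no more than 29.4 CPM elsewhere. Eif2s3y of the Y chromosome had 0 counts in 7 libraries labelled male, namely HFpEF replicates 1 and 3 and all untreated and PFD libraries, and 613 to 1321 counts in the other 12. RT1-CE16, a major histocompatibility gene, had at most 3 counts in control 5w, HFpEF and EMPA and 308 to 922 in the other 4 groups. In UT, TE and EMPA against untreated, the treatment therefore cannot be told apart from the split in Eif2s3y, nor week 5 against week 9 and EMPA against untreated from the split in RT1-CE16. All libraries were kept under their labels, and the counts of called members are given with and without these libraries. HFpEF is the only group that holds libraries both with and without Eif2s3y counts. A term for Y-linked counts therefore rests on HFpEF replicate 2 against replicates 1 and 3. Between other groups that differ in these counts, the term carries over that difference and decides nothing about their own libraries.

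**Figure D1:**
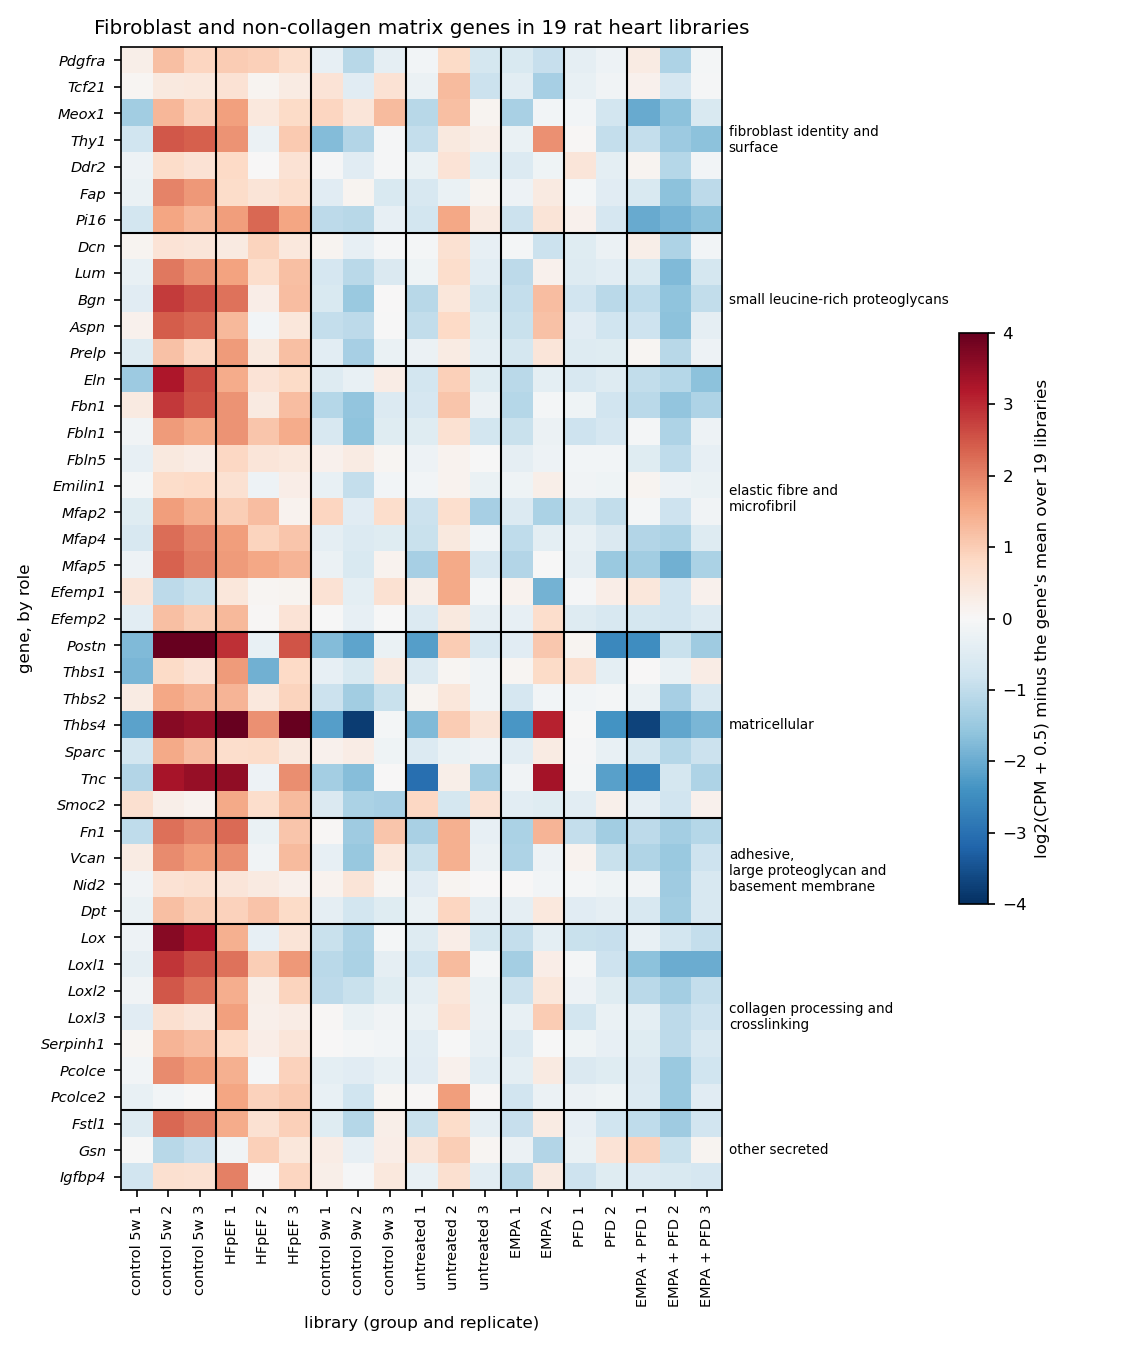
Each member (vertical axis, by role) in each library (horizontal axis), coloured by log2(CPM + 0.5) minus the gene's mean over the 19 libraries, with the colours ending at 4 and −4. Control 5w replicates 2 and 3 are high for most members and replicate 1 is not, and EMPA + PFD replicate 2 is low for most.

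In the HFpEF hearts of week 5, 2 members were DEGs against control 5w. Pcolce2, which enhances the cleavage of procollagen, was higher, and Lox, which crosslinks collagen, was lower. That is 1 of 43 higher and 1 of 43 lower, where 4.28% and 4.41% of all tested genes were called higher and lower, so that the members' share is no larger than the background. The median log2 fold change of the members was −0.21, and that of all tested genes 0.02. In 4 members (9.3%) every HFpEF library lay above every control 5w library, against 18.6% of all genes. With control 5w replicate 1 as the sole control 5w library, a setting chosen after seeing the data, the members' median was 1.34 and 3 other members were called (Eln, Mfap4 and Sparc), and without that library it was −0.51. The count was 4 without control 5w replicate 1 (Lox, Eln, Fap and Loxl2), 0 by edgeR without control 5w replicate 2 or 3 (3 members at an unadjusted p under 0.05), and 1 when any HFpEF library was left out (Lox without replicate 1, Pcolce2 without replicate 2 or 3). In HFpEF 2 of the 3 libraries lack Eif2s3y counts, which all control 5w libraries have. By edgeR 0 members were called with a term for Y-linked counts in the model (5 at an unadjusted p under 0.05, median −0.71) and 0 with control 5w replicates 2 and 3 summed (3, median 0.07). With HFpEF replicate 2 as the sole HFpEF library, assumed to vary like the other groups, the median was −0.72. That setting and the Y-linked term both rest on HFpEF replicate 2 and are nearly the same comparison. DESeq2 called 2 members and voom 13. No share of all genes is given for these tools, here or below. Their counts therefore cannot be set against a background.

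Between the healthy hearts of the 2 time points, 25 of the 43 members were DEGs, each of them lower in control 9w than in control 5w. All genes gave 7.21% called lower, and medians were −1.42 for the members and −0.04 for all genes. The DEGs came from every role, and the most negative log2 fold change was that of Postn. In 14 members (32.6%) every control 9w library lay below every control 5w library, against 24.7% of all genes. The count was 13 without control 5w replicate 2, 12 without control 9w replicate 2 and 15 with control 5w replicates 2 and 3 summed, these last all among the 25. Without the libraries with atrial markers it was 12, of which 10 were among the 25 (Fbln1, Fbn1, Fstl1, Lox, Loxl1, Loxl2, Lum, Pdgfra, Smoc2 and Thbs2) and Emilin1 and Vcan were new. With control 5w replicate 1 as its sole library it was 2, Smoc2 and Thbs2, the log2 fold changes of Eln, Fstl1, Mfap4, Mfap5, Postn, Thbs4 and Tnc turned positive, and the members' median was −0.00449. In this setting and without the libraries with atrial markers, which leaves control 9w replicate 2 alone, the lone library is assumed to vary like the other groups, and calls there are not replicated in that group.

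Untreated hearts at week 9 had 0 of 43 members called against control 9w by edgeR, where 0.912% of all genes were called in either direction. At an unadjusted p under 0.05 there were 5, all higher in untreated, namely Smoc2, Thbs2, Pcolce2, Pi16 and Fbn1. Of all genes 18.2% had such a p in either direction. In 4 members (9.3%) every untreated library lay above every control 9w library, against 9.48% of all genes. DESeq2 called 2 members and voom 5. The members' median log2 fold change was 0.37 and that of all genes 0.01, and without untreated replicate 2 the members' median was −0.12. With a term for Y-linked counts the members' median was −0.30. The count was 1 without untreated replicate 2 (Smoc2) and 1 without control 5w replicate 1 (Thbs2). Against HFpEF at week 5, untreated hearts also had 0 members called by edgeR, where 0.194% of all genes were called by edgeR. DESeq2 called 1 member and voom 21, again without a share of all genes. By edgeR 15 members had an unadjusted p under 0.05. All 15 were lower in untreated. Of all genes 22.7% had such a p in either direction, and 12.7% had one and were lower. The members' median was −0.94, and in 10 members (23.3%) every untreated library lay below every HFpEF library, against 11.9% of all genes. The count was 7 without untreated replicate 2 (Dpt, Fbln1, Mfap2, Mfap5, Pcolce2, Pdgfra and Pi16), 2 without control 5w replicate 1 (Fbln1 and Mfap4), and 3 without the libraries with atrial markers (Fbln1, Mfap5 and Pcolce2). Without HFpEF replicate 1 it was 0 by edgeR, with 2 members at an unadjusted p under 0.05 and a median of −0.57, and without untreated replicate 1 or 3 also 0, with 5 and 6.

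After the combined treatment, 3 of 43 members were DEGs against untreated, each of them lower: Pi16, a gene of adventitial fibroblasts, and the collagen-processing genes Loxl1 and Pcolce2. Of all genes 1.48% were called lower. The members' median was −0.82 and that of all genes −0.03. An unadjusted p under 0.05 was found for 12 members, all lower. Of all genes 32.7% had one in either direction, and 16.1% had one and were lower. In 17 members (39.5%) every EMPA + PFD library lay below every untreated library, against 18.7% of all genes. The 3 calls rest on few libraries. By edgeR 0 members were called without untreated replicate 2 (5 at an unadjusted p under 0.05, members' median −0.46), 0 without EMPA + PFD replicate 2 (3) and 0 without EMPA + PFD replicate 3 (11), and the count was 6 without untreated replicate 1 and 8 without control 5w replicate 1. Loxl1 was not called when any of 15 of the 19 libraries was left out, and Pi16 and Pcolce2 were not called when any of these 3 was. DESeq2 called 7 members and voom 4, and fitted on the 6 libraries of both groups alone edgeR called 0, with 21 at an unadjusted p under 0.05. By edgeR 0 were called without the libraries with atrial markers (3 at an unadjusted p under 0.05) and 0 with a term for Y-linked counts in the model (2, median −0.15). That term rests on HFpEF libraries, which are not part of TE, and so decides nothing about TE.

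Given alone, the drugs left 0 members called by edgeR, DESeq2 and voom alike. For EMPA against untreated 0.0404% of all genes were called by edgeR, and 4 members had an unadjusted p under 0.05, where 8.63% of all genes did. The members' median was −0.27, which was 0.15 without untreated replicate 2 and −0.76 without EMPA replicate 2. It was 0.29 with a term for Y-linked counts, which rests on HFpEF libraries. For PFD against untreated 0.00807% of all genes were called, and 1 member had an unadjusted p under 0.05, where 5.21% of all genes did. The members' median was −0.57, or −0.01 without untreated replicate 2. The interaction of both drugs was the log2 fold change of EMPA + PFD against PFD minus that of EMPA against untreated. It also had 0 members called by edgeR, DESeq2 and voom (0.00807% of all genes by edgeR). At an unadjusted p under 0.05 it had 0 members by edgeR, where 9.13% of all genes were, and 1 by each of the other tools. Its median was −0.07 over the members, −0.76 without untreated replicate 2 and 0.40 without EMPA replicate 2. Among the groups of this interaction only EMPA lacked RT1-CE16 counts, so that it cannot be told apart from that split. With 2 libraries in each single-drug group, a missed threshold does not show that levels were alike.

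Between EMPA + PFD hearts and the HFpEF hearts of week 5, 33 of 43 members were called, each of them lower in EMPA + PFD, where 12% of all genes were called lower. The log2 fold change was negative for all 43 members, with a median of −1.81 against −0.09 over all genes, and with upper-quartile scaling, which moved the median of all genes by −0.11, 33 were called as well. In 36 members (83.7%) every EMPA + PFD library lay below every HFpEF library, against 27.7% of all genes. The count was 20 without HFpEF replicate 1, 20 without EMPA + PFD replicate 2, and 7 with a term for Y-linked counts, where the median was −1.15. With HFpEF replicate 2, the HFpEF library with Eif2s3y counts, as the sole library of its group, the members' median was also −1.15. That lone library is assumed to vary like the other groups. The Y-linked term rests on the same library, so that these 2 settings are nearly the same comparison. HFpEF hearts were taken at week 5 and EMPA + PFD hearts at week 9. The drugs therefore cannot be told apart from time in this comparison, nor from the split in RT1-CE16. Without either drug, the members' median was −1.42 in PC and −0.94 in untreated against HFpEF. Against control 9w of the same week, the members' median in EMPA + PFD was −0.53. In 13 members (30.2%) every EMPA + PFD library lay below every control 9w library, against 26.5% of all genes. Here 1 member was a DEG, Meox1, which was lower in EMPA + PFD, where 4.92% of all genes were called lower. That count was 0 by edgeR without control 9w replicate 3 (4 at an unadjusted p under 0.05) or EMPA + PFD replicate 2 (4), and without EMPA + PFD replicate 1 the call was Nid2 in place of Meox1. Without the libraries with atrial markers, which leaves control 9w replicate 2 alone, the median was 0.13 and the call again Nid2.

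The difference between UT and DE, the change from control to diseased hearts at week 9 minus that at week 5, was called for 1 of 43 members, Thbs2, which was higher, against 6.35% of all genes called higher. The median was 0.59 over the members and −0.02 over all genes, and for the members it was −0.87 with control 5w replicate 1 as its sole library and −0.03 without untreated replicate 2. Thbs2 remained called when control 5w replicate 1, HFpEF replicate 1, EMPA replicate 1, EMPA replicate 2, EMPA + PFD replicate 1 or EMPA + PFD replicate 2 was left out, and not for the other 13 libraries. The count was 6 without control 5w replicate 1, 3 without HFpEF replicate 1, and 0 by edgeR without control 5w replicate 2 or 3 (4 at an unadjusted p under 0.05 in each case). By edgeR 0 were called with a term for Y-linked counts (5), with control 5w replicates 2 and 3 summed (4) or without the libraries with atrial markers (4). DESeq2 called 3 members and voom 11. In each of these comparisons bulk RNA was measured, so that fewer fibroblasts and less RNA per fibroblast cannot be told apart.

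**Figure D2:**
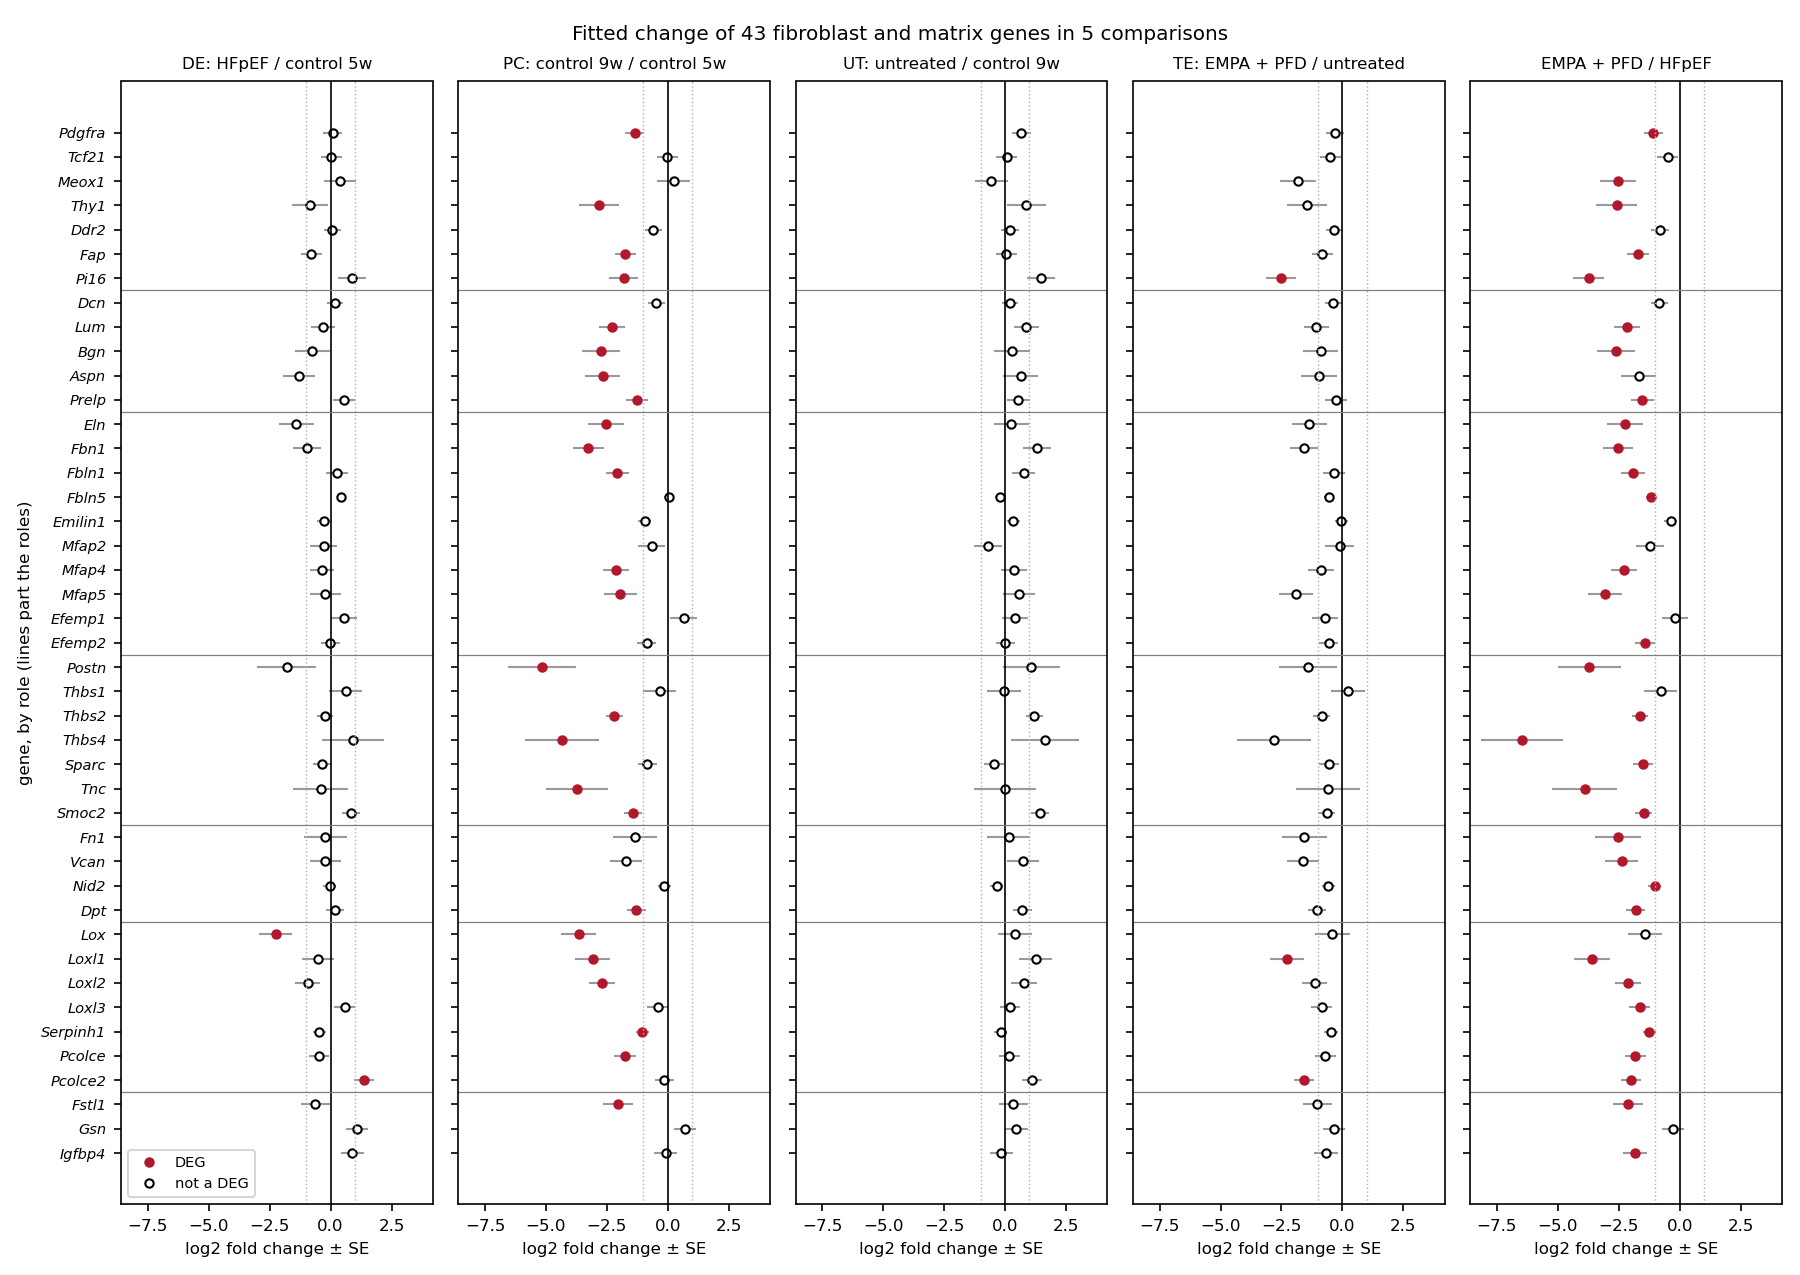
Fitted log2 fold change with its standard error (horizontal axis) of each member (vertical axis, by role) in 5 comparisons, with DEGs filled and dotted lines at −1 and 1. In control 9w against control 5w and in EMPA + PFD against HFpEF most members lie left of −1, with 25 and 33 DEGs.

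Genes that mark fibroblasts and their surface held 7 members, of which 4 were DEGs in PC, 1 in TE and 5 in EMPA + PFD against HFpEF. Pi16 encodes a peptidase inhibitor and marks fibroblasts around vessels. It was at 96.7, 484 and 407 CPM in control 5w and at 516, 796 and 487 in HFpEF. At week 9 Pi16 was at 78.7, 74.4 and 128 CPM in control 9w, 96.3, 476 and 208 in untreated, 88.3 and 232 in EMPA, 184 and 102 in PFD and 40.0, 44.5 and 51.4 in EMPA + PFD. The EMPA + PFD libraries were all low and lay below every untreated and every control 9w library, and untreated replicate 2 was high. In TE its log2 fold change was −2.52 (SE 0.61, adjusted p = 0.0225 by edgeR's quasi-likelihood test and Benjamini-Hochberg), and −1.75 without untreated replicate 2, where it was no longer called, −2.50 without EMPA + PFD replicate 2 and −2.61 without replicate 3, where it was not called either. Against HFpEF the log2 fold change of Pi16 in EMPA + PFD was −3.73 (SE 0.64, adjusted p = 0.000758 by the same test), and −3.82 without HFpEF replicate 1. In PC it was −1.81 (SE 0.59, adjusted p = 0.0286 by the same test), or −2.24 without control 5w replicate 1, −0.05 (not called) with that replicate as the sole control 5w library and −2.15 (not called) without the libraries with atrial markers. The PC call was lost without control 5w replicate 2 (−1.42), control 5w replicate 3 (−1.63), control 9w replicate 1 (−1.70) or control 9w replicate 2 (−1.67). Its level in control 5w replicate 1 lay within the control 9w range. In UT the value for Pi16 was 1.47 and did not pass the test.

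Fap, a surface serine protease of activated fibroblasts, was at 27.3, 131 and 112 CPM in control 5w and at 55.6, 47.2 and 53.6 in HFpEF. In the week 9 groups Fap was at 24.0, 35.8 and 21.3 CPM in control 9w, 21.2, 27.4 and 35.5 in untreated, 28.8 and 42.9 in EMPA, 31.5 and 24.2 in PFD and 21.6, 10.3 and 15.8 in EMPA + PFD. Control 5w replicates 2 and 3 were high, replicate 1 lay within the control 9w range, and every untreated library was below every HFpEF library. The PC log2 fold change was −1.74 (SE 0.43, adjusted p = 0.00739 by edgeR's quasi-likelihood test and Benjamini-Hochberg), or −2.16 without control 5w replicate 1, −0.02 (not called) with that replicate as the sole control 5w library and −1.33 (not called) without the libraries with atrial markers. Meox1, a homeobox transcription factor, was at 2.07, 16.4 and 12.4 CPM in control 5w and at 20.7, 8.62 and 10.9 in HFpEF. At week 9 Meox1 was at 11.8, 8.98 and 15.8 CPM in control 9w, 2.64, 15.02 and 6.74 in untreated, 2.26 and 5.83 in EMPA, 5.81 and 3.60 in PFD and 1.18, 1.67 and 3.97 in EMPA + PFD. Every EMPA + PFD library lay below every control 9w library, and control 5w replicate 1 was as low as the EMPA + PFD libraries. Against control 9w the log2 fold change of Meox1 was −2.40 (SE 0.74, adjusted p = 0.023 by the same test), with −2.17 without control 9w replicate 3, −2.21 without EMPA + PFD replicate 2 and −2.08 without EMPA + PFD replicate 1, where it was not called.

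Pdgfra, a growth factor receptor of fibroblasts, ranged from 81.1 CPM in EMPA + PFD replicate 2 to 438 CPM in control 5w replicate 2. It was a DEG in PC with a log2 fold change of −1.36 and in EMPA + PFD against HFpEF with −1.08, and neither held in every fit. In PC it was not called without control 5w replicate 2 (−1.13) or control 9w replicate 2 (−1.15). Against HFpEF it was not called without HFpEF replicate 1 (−1.02), HFpEF replicate 2 (−1.05), EMPA + PFD replicate 2 (−0.74) or EMPA + PFD replicate 3 (−1.13). Thy1, a surface glycoprotein, ranged from 2.59 CPM in control 9w replicate 1 to 57.4 CPM in control 5w replicate 2 and fell by 2.84 on the log2 scale in PC and by 2.58 against HFpEF. The call of Thy1 in PC was lost without control 5w replicate 2 (−2.44), control 9w replicate 1 (−2.51) or control 9w replicate 2 (−2.68). That against HFpEF was lost without HFpEF replicate 1 (−2.01), EMPA + PFD replicate 2 (−2.49) or EMPA + PFD replicate 3 (−2.40). Ddr2, a collagen receptor kinase, ranged from 30.1 CPM in EMPA + PFD replicate 2 to 117 CPM in HFpEF replicate 1, and Tcf21, a transcription factor of fibroblasts that descend from the epicardium, ranged from 10.9 CPM in EMPA replicate 2 to 68.4 CPM in untreated replicate 2. Neither Ddr2 nor Tcf21 was called in any of the 11 comparisons.

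Small leucine-rich proteoglycans, which bind collagen fibrils, held 5 members, of which 4 were DEGs in PC and 3 against HFpEF. Lum encodes lumican. It was at 325, 1709 and 1387 CPM in control 5w and at 1209, 641 and 901 in HFpEF. At week 9 Lum was at 249, 187 and 266 CPM in control 9w, 353, 641 and 292 in untreated, 190.4 and 446 in EMPA, 276 and 294 in PFD and 257, 115 and 241 in EMPA + PFD. Every control 9w library lay below every control 5w library, every untreated library lay above control 9w, and every EMPA + PFD library lay below untreated. Its PC value was −2.29 (SE 0.53, adjusted p = 0.00496 by edgeR's quasi-likelihood test and Benjamini-Hochberg), or −2.72 without control 5w replicate 1, −0.48 (not called) with that replicate as the sole control 5w library and −2.61 without the libraries with atrial markers. It was 0.87 in UT and −1.07 in TE, neither past the test, and without untreated replicate 2 these were 0.46 and −0.66. Against HFpEF Lum fell in EMPA + PFD, with −2.16 (SE 0.53, adjusted p = 0.00487 by the same test), and −1.91 without HFpEF replicate 1. Aspn encodes asporin, and was at 5.56, 28.2 and 24.9 CPM in control 5w and at 12.6, 4.40 and 6.79 in HFpEF. The week 9 levels of Aspn were 2.26, 2.09 and 4.79 CPM in control 9w, 2.22, 8.69 and 3.27 in untreated, 2.40 and 11.4 in EMPA, 3.40 and 2.57 in PFD and 2.48, 1.20 and 3.66 in EMPA + PFD. Control 5w replicate 1 lay above the control 9w libraries by little, and control 5w replicates 2 and 3 were far above both. Between the controls its log2 fold change was −2.67 (SE 0.72, adjusted p = 0.0112 by the same test), or −3.10 without control 5w replicate 1, −0.86 (not called) with that replicate as the sole control 5w library and −3.22 (not called) without the libraries with atrial markers. The call of Aspn was lost without control 9w replicate 2 (−2.46).

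Bgn, which encodes biglycan, ranged from 202 CPM in EMPA + PFD replicate 2 to 4299 CPM in control 5w replicate 2, with log2 fold changes of −2.75 in PC and −2.62 in EMPA + PFD against HFpEF, both called. The former was not called without control 5w replicate 2 (−2.29) or control 9w replicate 2 (−2.45). The latter was not called without HFpEF replicate 1 (−2.02) or EMPA + PFD replicate 2 (−2.43). Prelp, whose product anchors basement membrane to matrix, ranged from 30.3 CPM in control 9w replicate 2 to 252 CPM in HFpEF replicate 1 and was called in the same comparisons, with −1.26 and −1.53. In PC the call of Prelp held only without control 5w replicate 1, HFpEF replicate 1, HFpEF replicate 2, untreated replicate 2, EMPA replicate 1, EMPA replicate 2 or EMPA + PFD replicate 2. Against HFpEF it was lost without HFpEF replicate 1 (−1.18) or EMPA + PFD replicate 2 (−1.24). Dcn encodes decorin. It ranged from 789.5 CPM in EMPA + PFD replicate 2 to 3478 CPM in HFpEF replicate 2, and was called in none of the 11 comparisons. Its log2 fold change was −0.47 in PC and −0.83 against HFpEF, although every control 9w library lay below every control 5w library and every EMPA + PFD library below every HFpEF library.

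Elastic fibre and microfibril genes held 10 measured members, of which 5 were DEGs in PC and 7 in EMPA + PFD against HFpEF. Fbn1 encodes fibrillin, the main protein of microfibrils, and was at 355, 1952 and 1591 CPM in control 5w and at 966, 352 and 652 in HFpEF. At week 9 Fbn1 was at 124, 92.7 and 189.7 CPM in control 9w, 175, 601 and 236 in untreated, 125 and 262 in EMPA, 247 and 164 in PFD and 131, 92.9 and 118 in EMPA + PFD. Every control 9w library was below every control 5w library, and every EMPA + PFD library was below every untreated library, of which replicate 2 was the highest. For Fbn1 the PC value was −3.26 (SE 0.62, adjusted p = 0.0017 by edgeR's quasi-likelihood test and Benjamini-Hochberg), or −3.70 without control 5w replicate 1, −1.40 (not called) with that replicate as the sole control 5w library and −3.81 without the libraries with atrial markers. In TE it was −1.56 (SE 0.58, adjusted p = 0.0844 by the same test), which did not pass, and −0.85 without untreated replicate 2. Against HFpEF the log2 fold change of Fbn1 in EMPA + PFD was −2.53 (SE 0.60, adjusted p = 0.00439 by the same test), and −1.63 with HFpEF replicate 2 alone, where it was not called.

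Fbln1, which encodes the fibulin that binds fibronectin and elastin, was at 167, 609.5 and 524 CPM in control 5w and at 650.1, 403 and 515 in HFpEF. In week 9 hearts Fbln1 was at 118, 60.5 and 131 CPM in control 9w, 131, 282 and 111 in untreated, 100.01 and 156 in EMPA, 105 and 117 in PFD and 176, 78.5 and 159 in EMPA + PFD. Every HFpEF library was above every untreated library, and every control 5w library was above every control 9w library. The log2 fold change of Fbln1 was −2.07 (SE 0.48, adjusted p = 0.00518 by edgeR's quasi-likelihood test and Benjamini-Hochberg) in PC, or −2.45 without control 5w replicate 1, −0.70 (not called) with that replicate as the sole control 5w library and −2.84 without the libraries with atrial markers. It was −1.58 (SE 0.48, adjusted p = 0.1 by the same test) in untreated against HFpEF, where the groups did not overlap and the threshold was missed. Mfap4, a microfibril-associated glycoprotein, was at 10.1, 77.4 and 64.1 CPM in control 5w and at 52.0, 30.4 and 35.7 in HFpEF. At week 9 Mfap4 was at 12.5, 10.9 and 11.4 CPM in control 9w, 8.44, 21.4 and 14.9 in untreated, 7.72 and 12.3 in EMPA, 13.0 and 10.7 in PFD and 6.86, 6.34 and 11.1 in EMPA + PFD. Control 5w replicate 1 lay below all control 9w libraries while replicates 2 and 3 were the highest of all libraries. In PC the log2 fold change of Mfap4 was −2.12 (SE 0.53, adjusted p = 0.00791 by the same test), or −2.60 without control 5w replicate 1, 0.20 (not called) with that replicate as the sole control 5w library and −2.21 (not called) without the libraries with atrial markers, so that its sign rests on replicates 2 and 3.

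Eln, which encodes elastin, ranged from 67.8 CPM in EMPA + PFD replicate 3 to 1973 CPM in control 5w replicate 2, and fell by 2.53 on the log2 scale in PC and by 2.23 in EMPA + PFD against HFpEF. The call of Eln in PC was lost without control 5w replicate 2 (−1.83), control 9w replicate 1 (−2.37) or control 9w replicate 2 (−2.45). Control 5w replicate 1, at 76.9 CPM, lay below every control 9w library (147, 171 and 259 CPM), and with it as the sole control 5w library the value was 1.32 and not called, so that the negative sign rests on replicates 2 and 3. The call of Eln against HFpEF was lost without HFpEF replicate 1 (−1.90), EMPA + PFD replicate 2 (−2.27) or EMPA + PFD replicate 3 (−2.05). Mfap5, another microfibril glycoprotein, ranged from 17.1 CPM in EMPA + PFD replicate 2 to 344 CPM in control 5w replicate 2, with log2 fold changes of −1.96 and −3.06 in these comparisons, and with HFpEF replicate 2 alone, an unreplicated group, the value against HFpEF was −3.07 and called. In PC it was not called without control 5w replicate 2 (−1.52), control 5w replicate 3 (−1.79), control 9w replicate 1 (−1.94), control 9w replicate 2 (−1.79) or control 9w replicate 3 (−2.16). Fbln5, needed to assemble elastic fibres, ranged from 44.8 CPM in EMPA + PFD replicate 2 to 162 CPM in HFpEF replicate 1 and was called against HFpEF only, with −1.17, and not without EMPA + PFD replicate 2 (−0.98). Efemp2, a fibulin that brings Lox to elastin, ranged from 22.5 CPM in EMPA + PFD replicate 2 to 96.4 CPM in HFpEF replicate 1 and was likewise called against HFpEF only, with −1.42, and not without HFpEF replicate 1 (−1.003). Emilin1, an elastin interface glycoprotein, ranged from 61.5 CPM in control 9w replicate 2 to 208 CPM in control 5w replicate 3. Its value in PC, −0.95, had an adjusted p of 0.0132 by the same test but was under 2-fold, and without the libraries with atrial markers it was −1.49 and called. Mfap2, a microfibril glycoprotein, ranged from 4.64 CPM in untreated replicate 3 to 40.6 CPM in control 5w replicate 2, and Efemp1, a fibulin, from 14.1 CPM in EMPA replicate 2 to 156 CPM in untreated replicate 2. Neither Mfap2 nor Efemp1 was called in the 11 comparisons, and Efemp1 was higher in control 5w replicate 1 than in replicates 2 and 3.

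**Figure D3:**
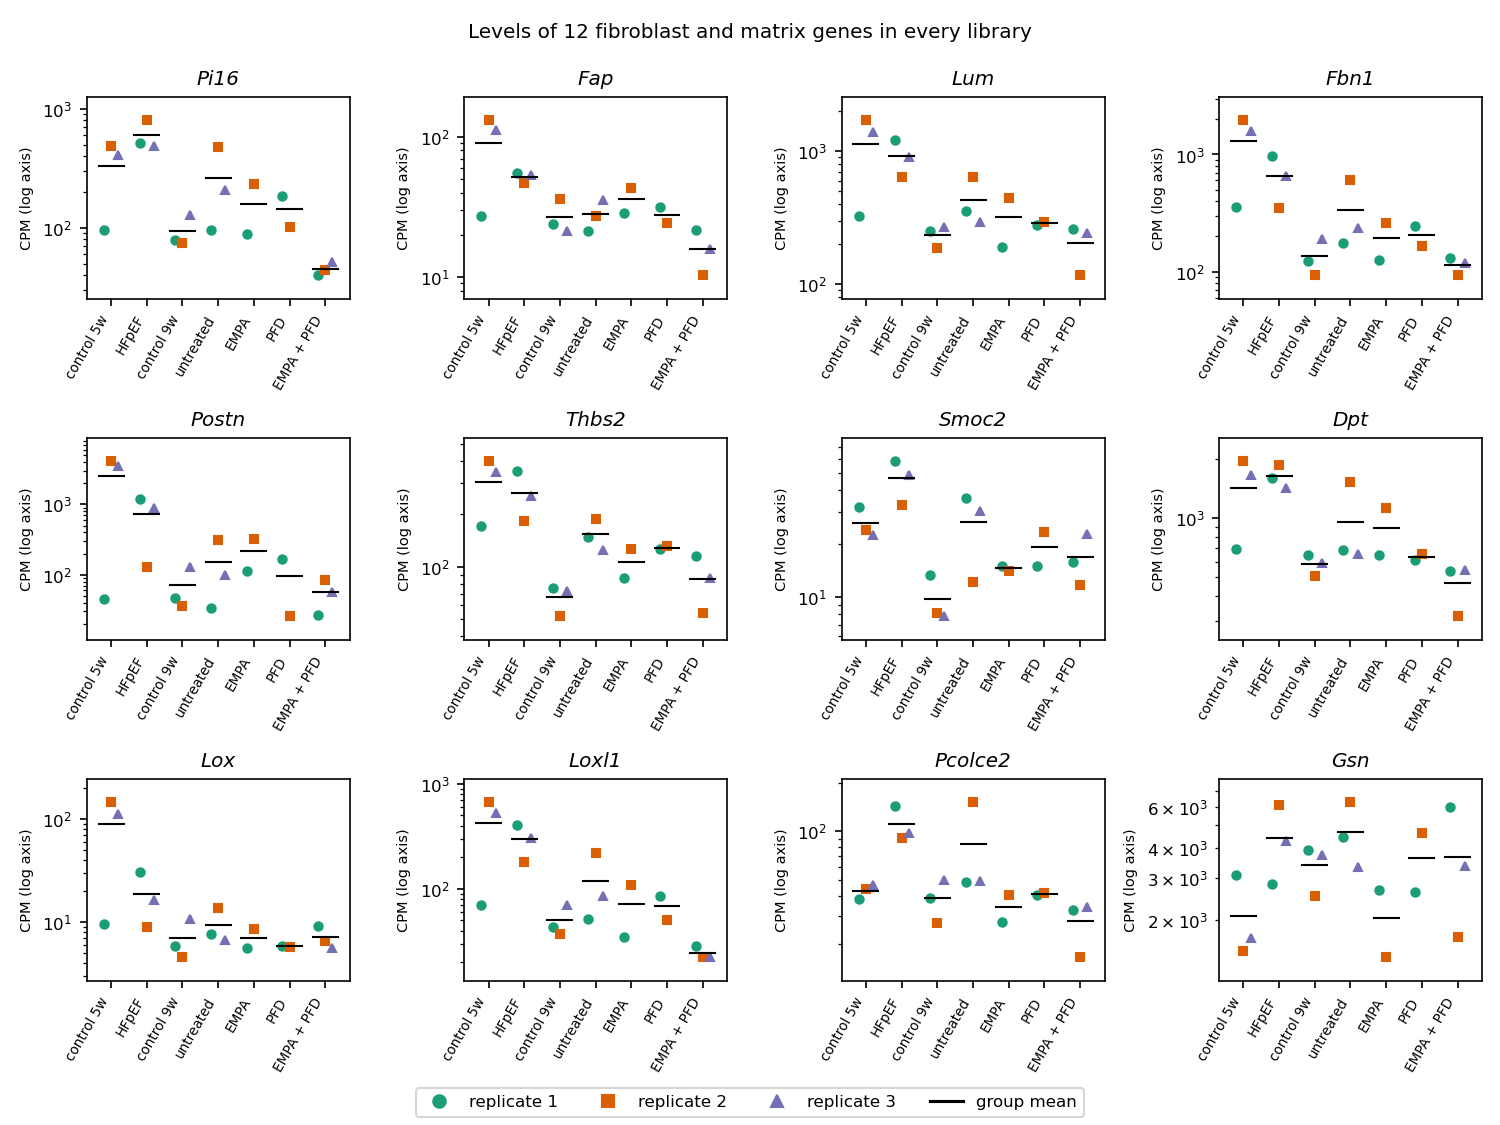
CPM on a log axis (vertical) of 12 members in each library of the 7 groups (horizontal), with a symbol for each replicate number and a bar for the group mean. For Pi16 and Loxl1 the EMPA + PFD libraries lie below all untreated libraries, and for most members control 5w replicate 1 lies far below replicates 2 and 3.

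Matricellular genes held 7 members, of which 5 were DEGs in PC, 6 in EMPA + PFD against HFpEF and 1 in the difference between UT and DE. Thbs2 encodes a thrombospondin that limits vessel growth and collagen fibril size. It was at 170.3, 399 and 347 CPM in control 5w and at 352, 183 and 255 in HFpEF. At week 9 Thbs2 was at 75.5, 51.9 and 72.6 CPM in control 9w, 147, 188 and 125 in untreated, 86.0 and 125 in EMPA, 126 and 130.3 in PFD and 114, 54.0 and 86.4 in EMPA + PFD. The control 9w libraries were low, below every control 5w library and every untreated library, and the EMPA + PFD libraries were below the untreated ones. Thbs2 had a log2 fold change in PC of −2.20 (SE 0.34, adjusted p = 0.000537 by edgeR's quasi-likelihood test and Benjamini-Hochberg), or −2.47 without control 5w replicate 1, −1.36 with that replicate as the sole control 5w library and −2.56 without the libraries with atrial markers, called in each, where the last 2 settings leave a group with a lone library. In UT it was 1.20 (SE 0.33, adjusted p = 0.0734 by the same test), under the threshold, and 1.03 without untreated replicate 2. The difference between UT and DE was 1.42 (SE 0.47, adjusted p = 0.0448 by the same test), with −0.22 in DE. It ran from 1.18 without control 5w replicate 2 to 1.70 without control 5w replicate 1. Against HFpEF Thbs2 fell in EMPA + PFD, with −1.63 (SE 0.34, adjusted p = 0.00195 by the same test), and −1.37 without HFpEF replicate 1.

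Smoc2, a calcium-binding protein related to Sparc, was at 31.9, 23.8 and 22.4 CPM in control 5w and at 57.9, 33.1 and 48.9 in HFpEF. In the groups of week 9 Smoc2 was at 13.3, 8.12 and 7.78 CPM in control 9w, 36.2, 12.1 and 30.6 in untreated, 14.9 and 14.1 in EMPA, 15.01 and 23.2 in PFD and 15.7, 11.7 and 22.7 in EMPA + PFD. All HFpEF libraries were above all control 5w libraries, control 9w was lower than both, and untreated replicate 2 was as low as control 9w while replicates 1 and 3 were above it. Smoc2 had a log2 fold change in PC of −1.42 (SE 0.37, adjusted p = 0.00981 by edgeR's quasi-likelihood test and Benjamini-Hochberg), or −1.24 without control 5w replicate 1, −1.72 with that replicate as the sole control 5w library and −1.68 without the libraries with atrial markers, called in each, though the last 2 rest on a lone library in a group. In UT it was 1.43 (SE 0.37, adjusted p = 0.0611 by the same test), not past the threshold, and 1.78 without untreated replicate 2, where it was called. Postn encodes periostin of activated fibroblasts, and was at 45.6, 4079 and 3528 CPM in control 5w and at 1179, 127 and 879.6 in HFpEF. At week 9 Postn was at 46.4, 35.4 and 130.0 CPM in control 9w, 33.3, 316 and 98.2 in untreated, 112 and 326 in EMPA, 168 and 25.5 in PFD and 27.1, 83.4 and 57.1 in EMPA + PFD. Control 5w replicate 1 lay within the control 9w range, and replicates 2 and 3 were the highest libraries of all. In PC the log2 fold change of Postn was −5.17 (SE 1.39, adjusted p = 0.0112 by the same test), or −5.74 without control 5w replicate 1, 0.62 (not called) with that replicate as the sole control 5w library and −6.17 (not called) without the libraries with atrial markers, and so of opposite sign by replicate 1. It was not called without control 9w replicate 2 (−4.85). Against HFpEF the log2 fold change of Postn in EMPA + PFD was −3.70 (SE 1.30, adjusted p = 0.0307 by the same test). That call was lost without HFpEF replicate 1 (−3.17), HFpEF replicate 3 (−3.55), EMPA + PFD replicate 1 (−3.35), EMPA + PFD replicate 2 (−4.09) or EMPA + PFD replicate 3 (−3.69).

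Sparc, a secreted collagen-binding protein, ranged from 1339 CPM in EMPA + PFD replicate 2 to 8423 CPM in control 5w replicate 2, and fell by 1.501 on the log2 scale in EMPA + PFD against HFpEF. With HFpEF replicate 2 alone the value for Sparc was −1.63, and it was called. Thbs4, a thrombospondin of injured muscle, ranged from 0.984 CPM in control 9w replicate 2 to 519 CPM in HFpEF replicate 1, where the lowest value rests on 8 counts. In EMPA + PFD against HFpEF its log2 fold change was −6.45 (SE 1.69), the most negative of the members, and in PC it was −4.34, both called. In PC Thbs4 was not called without control 5w replicate 2 (−3.88), control 5w replicate 3 (−4.003), control 9w replicate 1 (−4.02) or control 9w replicate 2 (−3.83). Tnc encodes tenascin of healing wounds and ranged from 1.06 CPM in untreated replicate 1 to 145 CPM in HFpEF replicate 1. It was called in PC (−3.73) and against HFpEF (−3.90), the latter in none of the fits without HFpEF replicate 1 or without any 1 of the EMPA + PFD libraries, and the former not without control 5w replicate 2 or 3 or control 9w replicate 1 or 2, and EMPA replicate 2 was at 126 CPM beside 10.9 in replicate 1. Thbs1, which can activate latent TGF-beta, ranged from 23.6 CPM in HFpEF replicate 2 to 297 CPM in HFpEF replicate 1 and was called in none of the 11 comparisons.

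Adhesive, large proteoglycan and basement membrane genes held 4 measured members, of which 1 was a DEG in PC and 4 in EMPA + PFD against HFpEF. Dpt encodes dermatopontin, which binds decorin and speeds collagen fibril formation. It was at 696, 1937 and 1651 CPM in control 5w and at 1604, 1859 and 1423 in HFpEF. At week 9 Dpt was at 649, 508 and 593 CPM in control 9w, 689.8, 1516 and 656 in untreated, 650.0 and 1119.5 in EMPA, 613 and 656 in PFD and 537, 316 and 542 in EMPA + PFD. Control 5w replicate 1 was little above the control 9w libraries, untreated replicate 2 was high, and the EMPA + PFD libraries were below every untreated library. Dpt had a log2 fold change in PC of −1.29 (SE 0.38, adjusted p = 0.0179 by edgeR's quasi-likelihood test and Benjamini-Hochberg), or −1.61 without control 5w replicate 1, −0.26 (not called) with that replicate as the sole control 5w library and −1.49 (not called) without the libraries with atrial markers. Its call in PC was lost without control 5w replicate 2 (−1.01), control 5w replicate 3 (−1.17) or control 9w replicate 2 (−1.20). In TE it was −1.04 (SE 0.38, adjusted p = 0.0802 by the same test), which did not pass, and −0.53 without untreated replicate 2. Against HFpEF Dpt fell in EMPA + PFD, with −1.81 (SE 0.39, adjusted p = 0.00245 by the same test), and −1.997 with HFpEF replicate 2 alone, where it was called. Fn1, which encodes fibronectin, ranged from 110.3 CPM in control 9w replicate 2 to 1400.2 CPM in HFpEF replicate 1, and Vcan, which encodes the large proteoglycan versican, from 31.9 CPM in control 9w replicate 2 to 339 CPM in control 5w replicate 2. Their log2 fold changes against HFpEF were −2.54 and −2.38, both called. Fn1 was not called without HFpEF replicate 1 (−1.74), HFpEF replicate 3 (−2.65), EMPA + PFD replicate 1 (−2.58), EMPA + PFD replicate 2 (−2.44) or EMPA + PFD replicate 3 (−2.53). Vcan was not called without EMPA + PFD replicate 2 (−2.21). Nid2, a basement membrane linker, ranged from 22.6 CPM in EMPA + PFD replicate 2 to 96.5 CPM in control 5w replicate 3 and was called against HFpEF, with −1.02. It was not called without HFpEF replicate 1 (−0.95) or EMPA + PFD replicate 2 (−0.73).

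Genes that process and crosslink collagen held 7 members, of which 2 were DEGs in DE, 5 in PC, 2 in TE and 6 in EMPA + PFD against HFpEF. Lox encodes lysyl oxidase. It was at 9.70, 146 and 113 CPM in control 5w and at 31.0, 8.99 and 16.3 in HFpEF. At week 9 Lox was at 5.87, 4.55 and 10.7 CPM in control 9w, 7.70, 13.7 and 6.74 in untreated, 5.59 and 8.502 in EMPA, 5.92 and 5.76 in PFD and 9.11, 6.58 and 5.64 in EMPA + PFD. Control 5w replicates 2 and 3 were far above every other library, and replicate 1 lay within the ranges of HFpEF and of control 9w. In DE the log2 fold change of Lox was −2.25 (SE 0.67, adjusted p = 0.0309 by edgeR's quasi-likelihood test and Benjamini-Hochberg), −2.77 without control 5w replicate 1 and 0.94 with that replicate as the sole control 5w library. It was not called without control 5w replicate 2 (−1.71), control 5w replicate 3 (−2.05), HFpEF replicate 2 (−1.92) or HFpEF replicate 3 (−2.16). In PC the log2 fold change of Lox was −3.66 (SE 0.73, adjusted p = 0.00221 by the same test), or −4.18 without control 5w replicate 1, −0.47 (not called) with that replicate as the sole control 5w library and −4.30 without the libraries with atrial markers. Loxl1 encodes the lysyl oxidase that elastic fibres need, and was at 70.2, 664 and 531 CPM in control 5w and at 408, 179 and 305 in HFpEF. At week 9 Loxl1 was at 42.9, 37.1 and 70.0 CPM in control 9w, 52.1, 221 and 84.9 in untreated, 35.02 and 109 in EMPA, 85.3 and 50.9 in PFD and 28.5, 22.6 and 22.3 in EMPA + PFD. The EMPA + PFD libraries lay close together and below every untreated and control 9w library, and untreated replicate 2 was far above the other untreated libraries. In TE the log2 fold change of Loxl1 was −2.29 (SE 0.70, adjusted p = 0.0469 by the same test), and −1.49 without untreated replicate 2. The call held when control 5w replicate 1, HFpEF replicate 1, HFpEF replicate 2 or untreated replicate 1 was left out, and for no other library. In PC it was −3.08 (SE 0.72, adjusted p = 0.00512 by the same test), or −3.57 without control 5w replicate 1, −0.50 (not called) with that replicate as the sole control 5w library and −3.50 without the libraries with atrial markers. Against HFpEF the log2 fold change of Loxl1 in EMPA + PFD was −3.60 (SE 0.74, adjusted p = 0.00188 by the same test), and −2.87 with HFpEF replicate 2 alone, both called.

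Pcolce2 enhances the cleavage of procollagen, and was at 38.2, 44.2 and 46.9 CPM in control 5w and at 144, 91.1 and 98.2 in HFpEF. At week 9 Pcolce2 was at 38.7, 27.3 and 50.3 CPM in control 9w, 48.6, 151 and 49.5 in untreated, 27.7 and 40.6 in EMPA, 40.5 and 41.7 in PFD and 32.6, 16.6 and 34.3 in EMPA + PFD. In this gene the control 5w libraries lay close together, every HFpEF library was above them, and untreated replicate 2 was as high as HFpEF while replicates 1 and 3 were near control 9w. Its log2 fold change in DE was 1.37 (SE 0.39, adjusted p = 0.0266 by edgeR's quasi-likelihood test and Benjamini-Hochberg). It was not called without control 5w replicate 1 (1.29), control 5w replicate 2 (1.39), control 5w replicate 3 (1.43) or HFpEF replicate 1 (1.14). In TE it was −1.58 (SE 0.40, adjusted p = 0.0261 by the same test). The call of Pcolce2 in TE was lost without untreated replicate 2 (−0.82), EMPA + PFD replicate 2 (−1.31) or EMPA + PFD replicate 3 (−1.74). Against HFpEF the log2 fold change of Pcolce2 in EMPA + PFD was −1.996 (SE 0.41, adjusted p = 0.00182 by the same test), and −1.71 with HFpEF replicate 2 alone, both called. Loxl2 encodes a lysyl oxidase of basement membrane and scar, and was at 30.8, 194 and 157 CPM in control 5w and at 94.2, 39.8 and 64.2 in HFpEF. At week 9 Loxl2 was at 16.4, 18.2 and 24.4 CPM in control 9w, 25.7, 46.8 and 28.6 in untreated, 18.5 and 46.9 in EMPA, 29.8 and 24.5 in PFD and 15.7, 12.9 and 17.2 in EMPA + PFD. Every control 5w library was above every control 9w library, and every untreated library was above control 9w and EMPA + PFD. In PC the log2 fold change of Loxl2 was −2.69 (SE 0.54, adjusted p = 0.00224 by the same test), or −3.14 without control 5w replicate 1, −0.65 (not called) with that replicate as the sole control 5w library and −2.80 without the libraries with atrial markers.

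Serpinh1, a chaperone that folds procollagen, was at 555, 1358 and 1240.3 CPM in control 5w and at 914, 641 and 744 in HFpEF. At week 9 Serpinh1 was at 532, 497 and 493 CPM in control 9w, 398, 523 and 428 in untreated, 363 and 523 in EMPA, 469 and 419.7 in PFD and 379.6, 256 and 339 in EMPA + PFD. Control 5w lay above control 9w, and control 9w above EMPA + PFD, without overlap, and control 5w replicate 1 was close to control 9w. For Serpinh1 the PC value was −1.05 (SE 0.27, adjusted p = 0.0095 by edgeR's quasi-likelihood test and Benjamini-Hochberg), or −1.35 without control 5w replicate 1, −0.14 (not called) with that replicate as the sole control 5w library and −1.08 (not called) without the libraries with atrial markers. Its PC call was lost without control 5w replicate 2 (−0.82) or control 5w replicate 3 (−0.92). Pcolce, which also enhances procollagen cleavage, was at 82.9, 327 and 281 CPM in control 5w and at 240.3, 86.5 and 170.2 in HFpEF. In week 9 hearts Pcolce was at 68.1, 64.3 and 71.8 CPM in control 9w, 64.0, 100.4 and 66.3 in untreated, 68.1 and 114 in EMPA, 59.2 and 63.1 in PFD and 59.2, 31.7 and 50.7 in EMPA + PFD. Apart from the higher untreated replicate 2, control 9w, untreated and PFD libraries lay near each other, with EMPA + PFD below untreated. Its log2 fold change in PC was −1.76 (SE 0.44, adjusted p = 0.00765 by the same test), or −2.15 without control 5w replicate 1, −0.29 (not called) with that replicate as the sole control 5w library and −1.84 (not called) without the libraries with atrial markers. Against HFpEF both fell in EMPA + PFD, Serpinh1 by 1.24 and Pcolce by 1.81 on the log2 scale. Loxl3, a further lysyl oxidase, ranged from 8.61 CPM in EMPA + PFD replicate 2 to 57.3 CPM in HFpEF replicate 1, and was called against HFpEF with −1.64, but not without HFpEF replicate 1 (−1.004).

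Other secreted proteins held 3 members, of which 1 was a DEG in PC and 2 in EMPA + PFD against HFpEF. Gsn encodes gelsolin, which severs actin filaments and is also secreted. It was at 3105, 1479 and 1680.2 CPM in control 5w and at 2847, 6106 and 4305 in HFpEF. At week 9 Gsn was at 3921, 2527 and 3764 CPM in control 9w, 4460.5, 6238 and 3356 in untreated, 2684 and 1394 in EMPA, 2618 and 4642 in PFD and 5960.3, 1702 and 3389 in EMPA + PFD. Here control 5w replicate 1 was the highest of its group, and the groups overlapped in each comparison but EMPA against untreated. Its log2 fold change was 1.08 (SE 0.46, adjusted p = 0.109 by edgeR's quasi-likelihood test and Benjamini-Hochberg) in DE, and Gsn was called in none of the 11 comparisons. Fstl1, a follistatin-like glycoprotein, ranged from 92.5 CPM in EMPA + PFD replicate 2 to 1230.2 CPM in control 5w replicate 2, with log2 fold changes of −2.05 in PC and −2.12 against HFpEF, both called. In PC Fstl1 was not called without control 5w replicate 2 (−1.63), control 5w replicate 3 (−1.84), control 9w replicate 1 (−1.99) or control 9w replicate 2 (−1.77). Against HFpEF it was not called without EMPA + PFD replicate 2 (−1.95). Igfbp4, which binds insulin-like growth factors, ranged from 49.1 CPM in EMPA replicate 1 to 424 CPM in HFpEF replicate 1 and was called against HFpEF, with −1.81, and not without HFpEF replicate 1 (−1.11).

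Collagen chains, the partners of these proteins in the matrix, were in part lower in the same comparisons. In PC 7.46% of all genes were called higher and 7.21% lower, and in EMPA + PFD against HFpEF 10.7% and 12%. Of 27 tested chains, 3 were called higher and 8 lower in PC, and 16 lower in EMPA + PFD against HFpEF, with medians of −0.80 and −1.84. Without the libraries with atrial markers the PC counts were 1 and 4, and without HFpEF replicate 1 the count against HFpEF was 4, without EMPA + PFD replicate 2 it was 6, and with a term for Y-linked counts it was 1 (Col17a1). Their summed level ran from 2549.8 CPM in EMPA + PFD replicate 2 to 44633 CPM in control 5w replicate 2, and Col3a1 had the most counts of any chain over all libraries. In DE the 4 chains called were Col2a1, with a log2 fold change of 11.97, Col9a1 with 6.67, Col9a3 with 5.83 and Col11a2 with 2.48, all higher. Each of these was far higher in HFpEF replicate 1 than in the other HFpEF libraries, and without it Col2a1, Col9a3 and Col11a2 were at 3.32, 1.35 and 0.75 and not called, and Col9a1 did not pass the filter on low counts. Without control 5w replicate 1 none of these 4 was called, and Col1a1, Col3a1, Col5a1 and Col8a1 were called lower instead. With a term for Y-linked counts 0 chains were called in DE by edgeR (2 at an unadjusted p under 0.05). Col17a1, a transmembrane collagen, was the chain called in TE, with −2.41 (SE 0.62, adjusted p = 0.0263 by edgeR's quasi-likelihood test). It was −1.37 without untreated replicate 2, −2.63 without EMPA + PFD replicate 2 and −1.97 with the Y-linked term, and not called in any of these.

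Of 22 other fibroblast genes tested, 2 were called higher and 1 lower in DE, 8 lower in PC, 1 higher in UT, 1 higher and 2 lower in TE, and 15 lower in EMPA + PFD against HFpEF. Of all genes 0.339% were called higher in UT and 2.34% in TE. Without the libraries with atrial markers the PC count was 4, and without HFpEF replicate 1 or EMPA + PFD replicate 2 the count against HFpEF was 11. With a term for Y-linked counts it was 2 (Islr and Scara5). In DE Comp of cartilage had a log2 fold change of 6.35, Fmod, a small proteoglycan, 3.26, and Cthrc1, a secreted protein of activated fibroblasts, −3.76. Cthrc1 was at 3.01, 471 and 393 CPM in control 5w and at 41.0, 4.13 and 18.5 CPM in HFpEF, and control 5w replicates 2 and 3 were far above every other of these libraries. Without HFpEF replicate 1 Comp, Fmod and Cthrc1 were at 3.21, 1.39 and −4.67, and not called, nor were they with the Y-linked term (0.90, 0.60 and −6.13). In TE Islr, a secreted leucine-rich repeat protein, had −2.12 (SE 0.61, adjusted p = 0.0397 by edgeR's quasi-likelihood test), Spon2 −1.30 and Crispld2 1.16. Without untreated replicate 2 these were −1.59, −1.19 and 1.07, and not called, nor were they called without EMPA + PFD replicate 2 (−1.97, −1.26 and 1.26). With the Y-linked term they were −1.73, 0.40 and 0.60 and not called. That term rests on HFpEF libraries, where Spon2 was at 21.7, 6.79 and 22.6 CPM. The turned sign of Spon2 therefore comes from libraries that are not part of TE. Scara5, a scavenger receptor gene, was the gene called in UT (1.27), and not without untreated replicate 2 (0.81) or with the Y-linked term (1.03).

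Genes of TGF-beta signalling belong to the pathway best known to drive fibroblasts to make matrix. Of 18 tested, 2 were called higher (Smad6 and Smad7, inhibitors of the pathway) and 1 lower (Tgfbi) in PC, where 7.46% and 7.21% of all genes were called higher and lower, and 4 were called lower in EMPA + PFD against HFpEF, namely Tgfb1, Tgfb3, Ccn2 and Ltbp3, where 12% of all genes were. That last count was 2 without HFpEF replicate 1 and 1 with a term for Y-linked counts (Tgfb1, with Tgfbr3 called higher), and the PC counts were 1 and 4 without control 5w replicate 1. Their median log2 fold change was 0.15 in DE and −0.52 in TE. Of 20 genes of matrix turnover, 1 was called higher in DE, Timp4, an inhibitor of metalloproteinases (1.73), 2 were called higher and 5 lower in PC, and 10 lower against HFpEF, or 5 without HFpEF replicate 1, 6 without EMPA + PFD replicate 2 and 1 with the Y-linked term (Adamts10). Of 22 matrix receptors, 1 was called higher in DE, the integrin gene Itgb4 (2.87, and 1.21 and not called without HFpEF replicate 1). In PC 3 were called lower, or 5 without control 5w replicate 1 and 2 with control 5w replicates 2 and 3 summed. Against HFpEF 2 were called higher and 7 lower, or 1 and 1 without HFpEF replicate 1. With the Y-linked term Itga7 alone was called, and higher, and Itgb4 in DE was 0.91 and not called.

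Markers of other cell types also differed between the libraries, and their part in them was not tested. The 9 ventricular cardiomyocyte markers, of which Myh6 had the highest total over all libraries, summed, in CPM, to 89238, 44389 and 48656 in control 5w, 14202, 21760.1 and 38245 in HFpEF, 37557, 43677 and 38939.5 in control 9w, 67040.1, 18179.9 and 60903 in untreated, 51172 and 41948 in EMPA, 69333 and 71689 in PFD and 80975, 96506 and 76195 in EMPA + PFD. Their sum was lowest in HFpEF replicate 1 and highest in EMPA + PFD replicate 2, the libraries that were high and low for the members, and 6 of the 9 were called higher in EMPA + PFD against HFpEF, where 10.7% of all genes were, and 3 without HFpEF replicate 1 or EMPA + PFD replicate 2 and 2 with a term for Y-linked counts. The 9 macrophage and myeloid markers, of which Lyz2 had the highest total over all libraries, summed, in CPM, to 765, 2340.4 and 1897 in control 5w, 3408, 747 and 1997 in HFpEF, 425, 336 and 506 in control 9w, 429.5, 984 and 507 in untreated, 579 and 560.2 in EMPA, 612 and 437 in PFD and 316, 351 and 510.1 in EMPA + PFD. Every EMPA + PFD library was below every HFpEF library in this sum. Of all genes 7.21% were called lower in PC and 12% in EMPA + PFD against HFpEF. Of the 9 markers 6 were called lower in PC and 8 against HFpEF. These were 3 in PC without the libraries with atrial markers, and 0 by edgeR against HFpEF with the Y-linked term (3 at an unadjusted p under 0.05). The 8 endothelial markers, of which Vwf had the highest total over all libraries, summed, in CPM, to 1848, 1512 and 1738 in control 5w, 1736, 3689.6 and 2908 in HFpEF, 3914, 3994 and 3443 in control 9w, 3039, 3535 and 3304 in untreated, 3090.4 and 2379.7 in EMPA, 2499.7 and 2671 in PFD and 2168, 1830.0 and 1920.3 in EMPA + PFD. In PC 6 of the 8 were called higher, where 7.46% of all genes were. The 6 atrial markers, of which Nppa had the highest total over all libraries, summed, in CPM, to 3485, 6639.7 and 5098 in control 5w, 2495, 365 and 2195 in HFpEF, 5351, 242 and 23708 in control 9w, 174, 15065 and 572 in untreated, 861 and 5433 in EMPA, 3163 and 222 in PFD and 303, 749 and 361 in EMPA + PFD. Their sum was highest in control 9w replicate 3 and untreated replicate 2, where Sln was highest too. In PC 2 of the 6 atrial markers were called higher, with a median of 3.32, and 1 without control 5w replicate 1. Control 9w replicate 2, the lone control 9w library in the setting without atrial markers, had a lower atrial sum than every control 5w library. In EMPA + PFD against control 9w 5 of the 8 endothelial and 4 of the 6 atrial markers were called lower and 3 of the 9 ventricular ones higher, where 4.92% and 7.15% of all genes were called lower and higher. In TE 2 of the 6 atrial markers and 1 endothelial marker were called lower and 1 ventricular marker higher (all genes 1.48% and 2.34%). With the Y-linked term, which rests on HFpEF libraries, 3 endothelial markers were called lower in TE. In DE 2 endothelial markers were called higher and 2 ventricular markers lower (all genes 4.28% and 4.41%). Without the libraries with atrial markers none of these calls in TE was left, nor the atrial and ventricular ones against control 9w. The ventricular calls in DE were lost without HFpEF replicate 1, without control 5w replicate 1 and with the Y-linked term, and were 5 without untreated replicate 2. Endothelial calls in DE were 5 without HFpEF replicate 1, 4 with the Y-linked term and 1 with control 5w replicates 2 and 3 summed. None of the markers in these 4 lists was at 0 in any library.

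Further marker lists are given by the range of their summed CPM, each with its number of genes and the gene with the most counts over all libraries. Of all genes, 4.28% were called higher and 4.41% lower in DE, 7.46% and 7.21% in PC, and 10.7% and 12% in EMPA + PFD against HFpEF. Smooth muscle and pericyte markers (8, Abcc9) ran from 1278 in EMPA + PFD replicate 3 to 3449 in EMPA replicate 2, with 1 called higher in PC and 3 lower in EMPA + PFD against HFpEF, where none was left without HFpEF replicate 1 or with the Y-linked term. Mesothelial and epicardial markers (4, Wt1) ran from 27.7 in control 5w replicate 2 to 194 in control 9w replicate 2, with Msln, Upk1b and Krt19 at 0 in some libraries. Of these 3 were called higher in DE and 2 lower in EMPA + PFD against HFpEF, and none with the Y-linked term. Adipocyte markers (5, Adipoq) stayed between 0.0776 in control 5w replicate 2 and 5.76 in untreated replicate 2, each at 0 in some library. Red blood cell markers (5, Hbb) ran from 141 in EMPA + PFD replicate 1 to 3884 in HFpEF replicate 3, with Hba-a2 at 0 in some. All 4 that were tested were called lower in untreated against HFpEF, where 0.0807% of all genes were. The same 4 were called lower with the Y-linked term or without untreated replicate 2. Without HFpEF replicate 1 none was called, though all 4 had an unadjusted p under 0.05. With control 5w replicates 2 and 3 summed 1 was called. Of the same 4, 3 were called lower in EMPA + PFD against HFpEF (2 with the Y-linked term), 3 in EMPA + PFD against control 9w and 2 in UT, while 1 was called higher in DE and 1 in TE. Of all genes 4.92% were called lower in EMPA + PFD against control 9w, 0.573% lower in UT and 2.34% higher in TE. The sum of skeletal muscle markers (6, Acta1) ran from 583 in untreated replicate 2 to 6729 in control 5w replicate 1, with Myh1 and Myh4 at 0 in some, and 1 was called lower in DE and in PC, and 1 higher and 1 lower against HFpEF.

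By RefSeq's annotation of the rat assembly GRCr8, 17 members overlap another gene and 3 of these a protein-coding one: Aspn with Cenpp, Loxl3 with Htra2 and Mfap2 with Atp13a2. Lox overlaps the pseudogene Rps3a-ps12 and Pcolce2 the pseudogene Itpa-ps1. How the counting treated shared reads and strand is not given in the sources used here, so the values of these members may hold reads of their neighbours.

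The promoters of the 3 members called in TE are shown because these genes were lower together in EMPA + PFD. Each is the 300 bases from 250 before to 50 after the start of the gene, from the RefSeq promoter table of GRCr8, which held 30 promoters of 29 of the 45 listed genes, and is written 5′ to 3′ on the strand of the gene. Capitals mark CAGAC and its reverse complement GTCTG, the sequence that SMAD proteins of the TGF-beta pathway are known to bind, searched on both strands. The promoter of Loxl1 lies on the minus strand at chr8:67612175-67612474 and holds 2 matches, that of Pcolce2 on the plus strand at chr8:105072836-105073135 holds 0, and that of Pi16 on the plus strand at chr20:7377703-7378002 holds 2.
Loxl1: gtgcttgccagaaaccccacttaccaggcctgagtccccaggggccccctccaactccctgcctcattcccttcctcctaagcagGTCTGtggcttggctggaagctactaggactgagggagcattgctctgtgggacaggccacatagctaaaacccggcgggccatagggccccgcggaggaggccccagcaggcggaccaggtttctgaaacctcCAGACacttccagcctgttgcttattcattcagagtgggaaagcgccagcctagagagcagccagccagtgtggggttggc
Pcolce2: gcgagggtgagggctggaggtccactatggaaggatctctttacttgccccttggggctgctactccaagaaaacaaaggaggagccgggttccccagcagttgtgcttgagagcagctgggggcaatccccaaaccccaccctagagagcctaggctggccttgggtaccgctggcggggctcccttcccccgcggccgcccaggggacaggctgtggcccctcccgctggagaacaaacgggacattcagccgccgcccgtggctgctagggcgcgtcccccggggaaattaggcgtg
Pi16: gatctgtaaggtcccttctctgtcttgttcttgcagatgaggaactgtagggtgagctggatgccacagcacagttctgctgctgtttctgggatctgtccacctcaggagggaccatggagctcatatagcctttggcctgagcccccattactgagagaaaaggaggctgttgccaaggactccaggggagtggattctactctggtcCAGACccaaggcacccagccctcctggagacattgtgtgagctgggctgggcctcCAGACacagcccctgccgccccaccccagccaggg
The motif, of 5 bases, was present in 16 of the 30 member promoters (53.3%) and in 16755 of all 33469 promoters of that length (50.1%), so it describes the windows and sets no member apart.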

How the data were processed

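RNA-seq counts per gene symbol, as whole numbers, were deposited by the authors, who per the submitters' processing notes used Trim Galore, FastQC, HISAT2, HTSeq and rn6. The overlap mode and strand are not given in the sources used here. Counts were scaled by TMM, filtered with filterByExpr and fitted in edgeR 4.0.16 (R 4.3.3) with its quasi-likelihood F test in 1 model of 7 groups and 19 libraries, with Benjamini-Hochberg adjustment over all genes. The coefficient of variation between libraries of a group, as edgeR's common estimate, was 0.26. The fit was tested on simulated data, and no result given here rests on that test. Members and lists (collagen chains, other fibroblast genes, TGF-beta signal, matrix turnover, matrix receptors, cell markers, Y-linked genes) were chosen with earlier results of these data known. Values of every library are given for the 14 members with the smallest adjusted p among those called in DE, PC, UT, TE or a single drug against untreated, and the most abundant member of each remaining role, Dpt and Gsn. Pi16, Pcolce2 and Meox1 were added after their values were seen, as calls in counts of 5 or fewer. Alternatives were upper-quartile and relative log expression scaling, other filters, DESeq2 1.42.0, voom with quality weights (limma 3.58.1), only the groups compared, adjusted p alone, a replicate block, a Y-linked term and leaving out each library. Chosen after seeing the data were control 5w replicates 2 and 3 summed, replicate 1 alone, no libraries with atrial markers (Sln at 100 CPM or more), and HFpEF split by Y-linked counts.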

Additional observations from a re-analysis of the deposited data

Results flagged for a closer look

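The disease-by-week difference of Thbs2 was called, and the call was lost under many of the alternatives. The log2 fold change was −0.22 at week 5 (HFpEF against control 5w) and 1.20 at week 9 (untreated against control 9w), and the difference between them was 1.42 (SE 0.47, adjusted p = 0.0448 by edgeR's quasi-likelihood test and Benjamini-Hochberg). It was noted because the test of that difference passed the threshold, with 1 of 43 members called where 6.35% of all genes were called higher. The call was lost when any of 13 of the 19 libraries was left out, and with upper-quartile scaling, only the groups compared, the replicate block, a term for Y-linked counts, control 5w replicates 2 and 3 summed, or no libraries with atrial markers. In the same difference 2 of 9 ventricular, 1 of 8 smooth muscle and pericyte and 1 of 4 skeletal muscle markers were called higher. Called lower were 3 of 8 endothelial, 2 of 4 mesothelial and epicardial and 3 of 4 red blood cell markers, where 5.67% of all genes were.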

How the results depend on the processing

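Of 22 log2 fold changes of chosen single genes recomputed under each alternative, 598 values kept their sign and their side of the threshold, 105 kept the sign and lost the call, and 3 reversed. Those were, with control 5w as replicate 1 only, a setting chosen after seeing the data, Lox in DE at 0.94, Mfap4 in PC at 0.20 and Postn in PC at 0.62. Other genes were not tallied. Of recomputed counts of called members, 286 stayed within 1.5 times and 69 did not. That tally includes comparisons such as EMPA or PFD against untreated, whose counts were 0 throughout when each library was left out. Of the 19 counts with a library left out, 17 stayed and 2 did not in PC. In the difference between UT and DE 4 stayed and 15 did not. By edgeR, DE (2) was 1 with only the groups compared, 1 with the replicate block, 0 with a Y-linked term, 0 with only the HFpEF library with Y-linked counts, 0 with control 5w replicates 2 and 3 summed, and by voom 13. PC (25) was 16 with only the groups compared, 15 with replicates summed, 2 with replicate 1 only and 12 without atrial libraries. UT (0) was 2 by DESeq2 and 5 by voom. Untreated against HFpEF (0) was 1 by DESeq2, 21 by voom and 3 without atrial libraries. TE (3) was 7 by DESeq2, and 0 with only the groups compared, with a Y-linked term and without atrial libraries. EMPA + PFD against control 9w (1) was 5 by voom, 5 with only the groups compared and 3 at the adjusted p alone. EMPA + PFD against HFpEF (33) was 7 with a Y-linked term. Here and in DE, that term and the lone HFpEF library with Y-linked counts are nearly the same comparison. Both rest on HFpEF replicate 2. In TE the term rests on libraries outside the comparison. The difference between UT and DE (1) was 3 by DESeq2, 11 by voom, 2 with replicate 1 only, and 0 by edgeR with upper-quartile scaling, only the groups compared, the replicate block, a Y-linked term, replicates summed and no atrial libraries (5 at an unadjusted p under 0.05 in the model of all groups). With each library left out, counts ran from 0 to 4 in DE, 12 to 29 in PC, 0 to 1 in UT, 0 to 7 in untreated against HFpEF, 0 to 8 in TE, 0 to 1 in EMPA + PFD against control 9w, 20 to 35 in EMPA + PFD against HFpEF, and 0 to 6 in the difference between UT and DE. A lone library (EMPA or PFD with 1 left out, control 5w replicate 1, HFpEF replicate 2, control 9w replicate 2 without atrial libraries) was assumed to vary like the other groups. Replicate numbers did not pair the libraries: in 3 of 21 pairs of groups every correlation of libraries with the same number was over 0.1. The block left TE with 2 members. In each case the cause was not tested.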
